A study of Rattus norvegicus with 70 samples.

Results

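The kidneys of male rats given bisphenol A (BPA) were compared with those of male rats given vehicle. The comparison holds 3 BPA and 3 vehicle libraries, 1 per rat, chosen by organ, sex and treatment out of 70 libraries from 5 organs. All rats were Sprague-Dawley, an outbred laboratory strain, and were examined at postnatal day 63. Dams of the BPA group received 500 mg/kg/day by mouth between gestational day 6 and lactation day 6, and their pups received 250 mg/kg/day beginning on postnatal day 7. A second treated group, named Mix in the labels, received the same total dose as a mixture of bisphenol A, bisphenol F and bisphenol S, and its 3 male kidney libraries entered the model below. The vehicle group was dosed over the same period, with the vehicle itself not named in the labels. Litters had been reduced to 3 males and 3 females per dam, and the labels do not say which rats were littermates, so the p-values measure the spread between these rats only.

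BPA is an industrial phenol that binds oestrogen receptors weakly and is cleared largely as a glucuronide. The kidney reclaims glucose, phosphate and amino acids in the proximal tubule, which also makes glucose and serine and activates vitamin D. Fibroblasts and pericytes between the tubules form its stroma and lay down collagens and proteoglycans. Libraries made from the 3′ ends of messenger RNA depend on poly(A) tails, which mature ribosomal RNA lacks.

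The tissue label was checked against its markers. Umod, which encodes the uromodulin of the loop of Henle, had 1684, 1876 and 2533 CPM in BPA kidneys and 1190, 1830 and 2221 CPM in vehicle kidneys. CPM here are library counts scaled by edgeR to a common library size (TMM). Aqp2, the water channel of the collecting duct, had 158, 248 and 236 CPM in BPA kidneys and 148, 250 and 205 CPM in vehicle kidneys. Markers of both compartments were therefore present in every library. The Y-linked gene Eif2s3y had 22.4 to 31.3 CPM without TMM scaling in BPA kidneys and 25.1 to 38.9 CPM in vehicle kidneys, and no count in any of the 7 female kidney libraries.

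The libraries of the groups differed in composition before any gene was tested. The BPA libraries held 5760570, 5983180 and 6519567 counts and the vehicle libraries 9093342, 10218159 and 8524615 counts. The 7 ribosomal RNA rows (Rn45s, Rn18s, Rn28s and 4 rows of Rn5-8s) took 37.2%, 16.4% and 36.9% of all counts in the BPA kidneys, against 3.50%, 1.70% and 2.53% in the vehicle kidneys. The share averaged 30.2% ± 11.9 in BPA kidneys and 2.58% ± 0.899 in vehicle kidneys (SD, n = 3 each). The groups did not overlap, and the difference of 27.6 percentage points had an exact two-sided permutation p of 0.1, the smallest that 3 against 3 allows. The Mix kidneys held 20.2%, 1.42% and 6.04%, so that Mix replicate 1 lay among the BPA libraries and Mix replicate 2 just below the vehicle libraries. In female kidney the order of the groups was not the same, with 17.2% and 20.9% in BPA, 20.6%, 17.5% and 17.8% in Mix and 37.1% and 19.2% in vehicle libraries. The share of ribosomal RNA, the depth and the treatment cannot be told apart among the 6 male libraries.

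**Figure D1:**
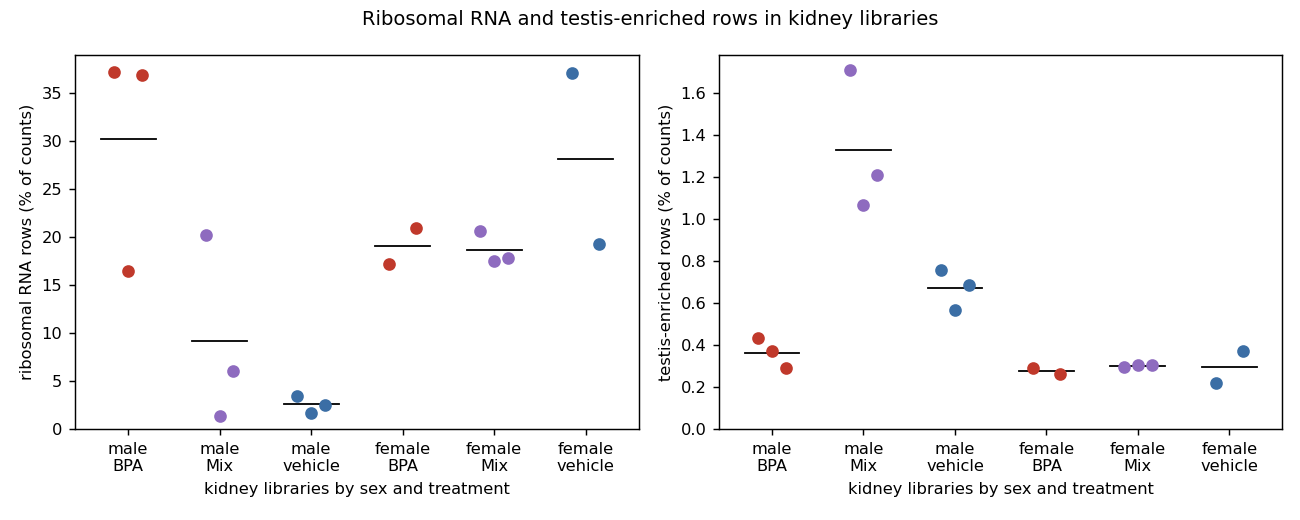
Share of all counts, in percent, that fell in the 7 ribosomal RNA rows (left) and in 1224 testis-enriched rows (right), in each kidney library by sex and treatment. Points are libraries and lines are group means; the 3 male BPA libraries lie at 16.4% to 37.2% ribosomal RNA, above the male vehicle libraries at 1.70% to 3.50%, and at 0.291% to 0.432% testis-enriched counts, below the male vehicle libraries at 0.569% to 0.759%.

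The excess was not equal across the ribosomal RNA rows. Rn28s took 10.8%, 2.51% and 9.23% of counts in BPA kidneys and 0.162%, 0.0402% and 0.110% in vehicle kidneys, a log2 fold change of 6.64 ± 1.32 (SE). Rn18s took 7.67%, 5.63% and 8.98% in BPA kidneys and 1.57%, 0.801% and 1.14% in vehicle kidneys, with a log2 fold change of 3.09. Rn45s, the row of the precursor, averaged 15% ± 5.93 in BPA kidneys and 1.28% ± 0.447 in vehicle kidneys. The 4 Rn5-8s rows together averaged 0.184% ± 0.123 in BPA kidneys and 0.0275% ± 0.00817 in vehicle kidneys. In each of the 16 kidney libraries the count of Rn45s was 0.998 to 1.00 times the sum of Rn18s, Rn28s and the first Rn5-8s row, so the rows of the mature RNAs and that of the precursor together hold each count very nearly a second time. With Rn45s left out of both sides of the ratio, the share was 22.8%, 9.0% and 22.7% in BPA kidneys and 1.79%, 0.867% and 1.30% in vehicle kidneys. None of the 7 rows passed in the fit described next (Rn28s, adjusted p = 0.0665), and all 7 passed when the Mix libraries were left out.

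Gene by gene, BPA was tested against vehicle with edgeR's quasi-likelihood test in a fit of all 9 male kidney libraries, in which the 3 groups share an estimate of the spread. An adjusted p below 0.05 over the 11000 genes tested counted as passing. With this fit 15 genes passed (0.136%), of which 5 rose (0.0455%) and 10 fell (0.0909%). In the 6 BPA and vehicle libraries alone, 1339 of 10743 genes passed (12.5%), with 707 rising (6.58%) and 632 falling (5.88%), and these included all 15. The gap between the fits followed the Mix libraries: with Mix replicate 1 left out 886 genes passed, with Mix replicate 2 left out 481, and with Mix replicate 3 left out 3. Leaving out vehicle replicate 1, 2 or 3 left 0, 8 and 0 genes (1385, 1773 and 1729 at an unadjusted p below 0.05, edgeR), and leaving out BPA replicate 1, 2 or 3 left 28, 1 and 1. With the 6 libraries as the base, the corresponding counts were 339, 717 and 591 without a vehicle library and 832, 945 and 1285 without a BPA library. Groups that did not overlap were frequent, with BPA above vehicle in 1893 genes (17.2%) and below it in 1919 (17.4%). Below, "rose" and "fell" refer to the 9 libraries, and genes that passed only with the 6 libraries are named as such.

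Of the 15 genes, 8 lay outside the ribosomal and testis-enriched rows, 5 rising and 3 falling. The 5 that rose were Dcn, Tcf21 and Pdgfra, which belong to the fibroblast list given below, together with Abca8a and Ppm1k. The 3 that fell were Phgdh, Apcs and Spp2. The other 7 were testis-enriched rows, all falling, and are described apart at the end.

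Dcn encodes decorin, a small proteoglycan that coats collagen fibrils. It had 455, 487 and 517 CPM in BPA kidneys, 193, 197 and 284 CPM in Mix kidneys, and 124, 144 and 128.3 CPM in vehicle kidneys. Every BPA library lay above every vehicle and every Mix library. Dcn rose 3.68-fold, a log2 fold change of 1.88 ± 0.18 (SE) with an adjusted p of 0.00358. It was the only one of the 8 genes that passed with testis-enriched rows left out of the table, where Tcf21, Pdgfra, Abca8a, Ppm1k, Phgdh, Apcs and Spp2 had an adjusted p of 0.0667, and it lost its call without vehicle replicate 1 (adjusted p = 0.0784) or vehicle replicate 3 (0.0779).

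Tcf21 encodes a transcription factor of the mesenchyme from which renal stroma arises. It had 23.8, 27.5 and 28.7 CPM in BPA kidneys, 9.08, 14.3 and 11.2 CPM in Mix kidneys, and 7.73, 8.32 and 9.66 CPM in vehicle kidneys. The BPA libraries stood apart from both other groups, and Tcf21 rose 3.11-fold (log2 1.64 ± 0.24, adjusted p = 0.0428). Pdgfra, the receptor through which fibroblasts respond to platelet-derived growth factor, had 90.5, 84.1 and 81.9 CPM in BPA kidneys, 50.7, 49.5 and 52.0 CPM in Mix kidneys, and 37.4, 47.3 and 48.1 CPM in vehicle kidneys. It rose 1.93-fold (log2 0.95 ± 0.16, adjusted p = 0.0482). Abca8a, a lipid transporter of the ATP-binding cassette family, had 86.5, 45.9 and 65.7 CPM in BPA kidneys, 56.2, 37.3 and 36.4 CPM in Mix kidneys, and 25.8, 18.1 and 19.6 CPM in vehicle kidneys. It rose 3.12-fold (log2 1.64 ± 0.27, adjusted p = 0.0454), and the Mix values overlapped those of BPA and lay above those of vehicle.

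**Figure D2:**
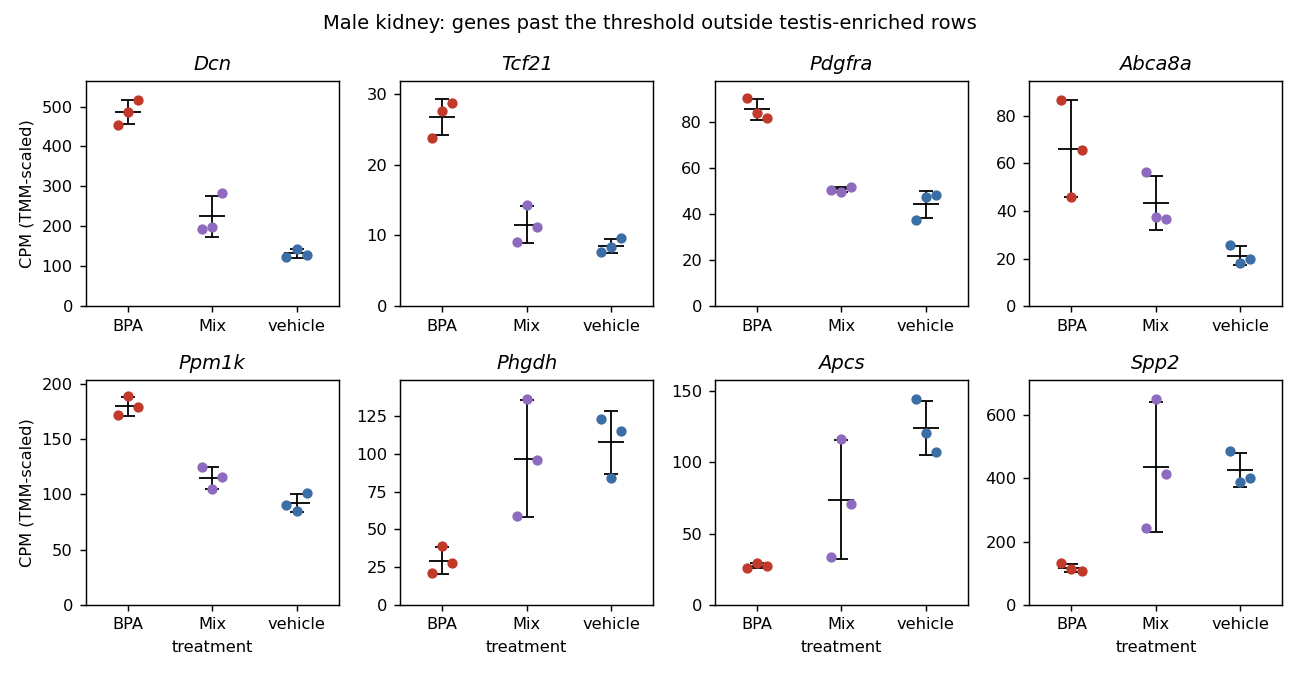
CPM (TMM-scaled) of the 8 genes outside testis-enriched and ribosomal RNA rows that passed, in BPA, Mix and vehicle male kidney. Points are libraries, lines and bars the mean ± SD of 3; Dcn lies at 455 to 517 CPM in BPA kidneys and 124 to 144 CPM in vehicle kidneys, and Apcs at 25.6 to 29.2 CPM in BPA kidneys and 107 to 145 CPM in vehicle kidneys.

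Beyond these, genes of the extracellular matrix stood higher in the BPA kidneys as a group. Of 38 matrix genes tested, 35 had a log2 fold change above 0, and the median was 0.85, against 0.01 over all genes tested. One of them, Dcn, rose and none fell. With the 6 libraries 20 passed upward, 52.6% of the list, and none downward. The fibrillar collagen genes were among the 20. Col1a1 had 176, 141 and 151 CPM in BPA kidneys and 41.1, 68.3 and 92.8 CPM in vehicle kidneys (log2 1.21 ± 0.30, adjusted p = 0.0835). Col1a2 had 361, 259 and 251 CPM in BPA kidneys and 70.1, 120 and 143 CPM in vehicle kidneys (log2 1.38 ± 0.29). Col3a1 had 147, 134 and 222 CPM in BPA kidneys and 50.5, 87.8 and 84.3 CPM in vehicle kidneys. For all 3 collagens the lowest BPA library lay above the highest vehicle library.

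Other matrix genes that passed only with the 6 libraries included Fbn1, Ltbp1, Fbln5, Ogn and Fn1. Fbn1, the fibrillin of microfibrils, averaged 32.4 CPM in BPA kidneys and 11.98 CPM in vehicle kidneys. Ltbp1, which anchors latent TGF-beta to the matrix, had 84.1, 48.7 and 87.0 CPM in BPA kidneys and 14.01, 21.2 and 26.6 CPM in vehicle kidneys (log2 1.83 ± 0.34, adjusted p = 0.0565). Fbln5, a fibulin of elastic fibres, averaged 148 ± 23.3 CPM in BPA kidneys and 64.8 ± 15.3 CPM in vehicle kidneys (adjusted p = 0.0557). Ogn, the proteoglycan osteoglycin, averaged 137 ± 16.5 CPM in BPA kidneys and 67.3 ± 4.96 CPM in vehicle kidneys (adjusted p = 0.0557). Fn1, which encodes fibronectin, had 132, 114 and 179 CPM in BPA kidneys and 35.6, 76.3 and 71.3 CPM in vehicle kidneys. Among 15 matrix proteases and inhibitors the median was 0.18 and the direction mixed, with Timp2 averaging 54.1 CPM in BPA and 24.2 CPM in vehicle kidneys while Timp3 averaged 442 CPM in BPA and 664 CPM in vehicle kidneys.

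Markers of the cells that make or border the matrix followed to different extents. In the fibroblast list of 21 genes, 3 rose (Dcn, Tcf21 and Pdgfra), none fell, and the median log2 fold change was 0.75. Among 15 pericyte and smooth muscle genes none passed with the 9 libraries, 4 passed upward with the 6 (26.7%), and the median was 0.79. Abcc9, a subunit of the pericyte potassium channel, had 73.3, 60.8 and 55.2 CPM in BPA kidneys and 22.4, 17.4 and 27.3 CPM in vehicle kidneys (2.82-fold, adjusted p = 0.0798). Des, which encodes the intermediate filament desmin, averaged 10.9 CPM in BPA kidneys and 4.12 CPM in vehicle kidneys, and Myh11, the smooth muscle myosin, 38.3 CPM in BPA kidneys and 21.5 CPM in vehicle kidneys. Acta2, the smooth muscle actin also made by activated fibroblasts, averaged 29.2 ± 3.37 CPM in BPA kidneys and 35.8 ± 7.46 CPM in vehicle kidneys and did not share that direction. The 16 endothelial genes had a median of 0.33. With the 6 libraries 1 of 15 passed upward, Eng, the endoglin co-receptor of TGF-beta. That is 6.67% of the endothelial list, near the 6.58% of all genes that passed upward. In whole kidney, more cells of a type and more RNA per cell cannot be told apart.

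Fat tissue borders the kidney and can carry fibroblasts with it, so its markers are given beside the stromal genes. Of 14 adipocyte genes 7 passed the filter on low counts, none passed the test with the 9 libraries, and their summed level was 332 to 350 CPM in BPA kidneys, 258 to 285 CPM in Mix kidneys and 301 to 312 CPM in vehicle kidneys. Fabp4, a fatty acid carrier of adipocytes and endothelium, had 60.3, 38.8 and 58.8 CPM in BPA kidneys and 15.04, 15.4 and 10.8 CPM in vehicle kidneys (log2 1.93 ± 0.48, adjusted p = 0.0841). Lpl, the lipoprotein lipase of fat and muscle vessels, had 62.2, 74.9 and 52.8 CPM in BPA kidneys and 24.0, 31.8 and 35.0 CPM in vehicle kidneys (log2 1.06 ± 0.27, adjusted p = 0.0880). These 2 of the 7 passed upward with the 6 libraries, Fabp4 at an adjusted p of 0.00188 and Lpl at 0.00825, and the median of the 7 was 0.55 with all 9 libraries. Fabp4 and Lpl were 28.6% of the 7, against 6.58% of all genes that passed upward. Of the 7, 4 had a log2 fold change above 0. Without overlap, 2 lay above vehicle and 2 below it (17.2% and 17.4% over all genes). Lipe, another gene of the list, was lower without overlap, averaging 58.4 ± 8.23 CPM in BPA kidneys and 83.7 ± 13.7 CPM in vehicle kidneys. Cfd, also of the list, had 18.1, 1.64 and 1.62 CPM in BPA kidneys and 2.27, 1.80 and 2.08 CPM in vehicle kidneys. Its BPA and vehicle groups overlapped (log2 1.77 ± 0.95, adjusted p = 0.30). In Mix kidneys it had 16.5, 3.20 and 2.47 CPM, so BPA replicate 1 and Mix replicate 1 stood above the other libraries. Adipoq, which encodes adiponectin, averaged 13.5 CPM in BPA kidneys and 9.27 CPM in vehicle kidneys, while Plin1 and Lep, the perilipin and leptin genes, had 36 and 7 counts in total over the 6 libraries. Of 12 skeletal muscle genes 1 passed the filter, and Myh4 had no count in the 6 libraries. Of 9 adrenal cortex genes 3 passed the filter, and Cyp11a1, Cyp11b1 and Nr5a1 had none. The part of adipose tissue in the stromal difference was not tested.

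Genes of the proximal tubule lay on the other side. Of 45 proximal tubule genes tested, none passed with the 9 libraries (17.4% of all genes lay below vehicle without overlap, and 24 of these 45 did). With the 6 libraries 21 passed downward, 46.7% of the list, and 3 upward, and the median log2 fold change was -0.62. Those passing downward included the carriers for glucose, phosphate and amino acids. Slc5a2, the glucose transporter SGLT2 that reclaims most filtered glucose, had 50.5, 66.5 and 83.1 CPM in BPA kidneys, 84.3, 377 and 201.1 CPM in Mix kidneys, and 321, 257 and 306 CPM in vehicle kidneys. The highest BPA library held less than the lowest vehicle library, and Mix replicate 1 lay next to the BPA libraries (BPA against vehicle, log2 -2.14 ± 0.41, adjusted p = 0.0644).

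Slc34a1, the main sodium-phosphate carrier of the brush border, is shown with the 250 bases before its start because it was the most abundant of the carriers that passed with the 6 libraries. The window is from RefSeq on build GRCr8, chr17:9238984-9239233, minus strand, written 5′ to 3′. Capitals mark the TATA box letters TATAAA, which begin 43 bases before the start, and the letters GTTAAT, core of the site bound by the tubular factor HNF1, read on the printed strand 120 bases and on the other strand (ATTAAC) 147 bases before it.
Slc34a1: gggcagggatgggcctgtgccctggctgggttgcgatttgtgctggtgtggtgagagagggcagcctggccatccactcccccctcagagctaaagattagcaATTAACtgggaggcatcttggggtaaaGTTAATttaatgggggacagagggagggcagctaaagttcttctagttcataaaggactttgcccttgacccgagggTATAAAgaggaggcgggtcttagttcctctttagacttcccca
Both strands of 33469 RefSeq windows of this length were searched. TATAAA was found in 12.9% of them and GTTAAT in 6.45%. A match describes the letters and not binding.

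Slc34a1 had 1017, 1039 and 936 CPM in BPA kidneys, 1438, 2750 and 1535 CPM in Mix kidneys, and 2683, 2171 and 2595 CPM in vehicle kidneys (log2 -1.32 ± 0.25, adjusted p = 0.0565). The BPA values lay within a narrow band below all others. Slc34a3, the companion phosphate carrier, had 27.8, 42.6 and 59.5 CPM in BPA kidneys and 162, 125.96 and 155 CPM in vehicle kidneys. Slc7a9, the light chain of the cystine carrier of the brush border, had 48.3, 54.3 and 60.1 CPM in BPA kidneys and 245, 173 and 182 CPM in vehicle kidneys (log2 -1.88 ± 0.37, adjusted p = 0.0644). Slc7a7 and Slc7a8 pass amino acids out of the cell on the blood side. Slc7a7 averaged 127.7 ± 51.9 CPM in BPA kidneys and 467 ± 98.8 CPM in vehicle kidneys, and Slc7a8 averaged 135 ± 8.53 CPM in BPA kidneys and 294 ± 31.0 CPM in vehicle kidneys. For each of these 5 carriers the groups did not overlap.

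The vitamin D enzymes, which work against each other, lay on opposite sides of 0 at low counts. Cyp27b1, which activates vitamin D, had 1.77, 3.61 and 0 CPM in BPA kidneys and 16.8, 13.4 and 18.4 CPM in vehicle kidneys (log2 -3.12 ± 0.76, adjusted p = 0.0835). Cyp24a1, which inactivates it, had 6.40, 3.28 and 2.63 CPM in BPA kidneys and 0.309, 0.515 and 1.46 CPM in vehicle kidneys (log2 2.41 ± 0.80, adjusted p = 0.133). Neither passed with the 9 libraries, and both passed with the 6. Gatm, the first enzyme of creatine synthesis, had 602, 451 and 426 CPM in BPA kidneys and 1678, 1250 and 793 CPM in vehicle kidneys. Hnf4a, a transcription factor of the proximal tubule, averaged 346 CPM in BPA kidneys and 528 CPM in vehicle kidneys. The brush-border enzyme Ggt1 averaged 1862 CPM in BPA kidneys and 1297 CPM in vehicle kidneys, and Dpep1 averaged 20.2 CPM in BPA kidneys and 10.3 CPM in vehicle kidneys, both against the direction of the list. The summed level of the 45 genes was 33200 to 37900 CPM in BPA kidneys, 35200 to 49500 CPM in Mix kidneys and 43600 to 46800 CPM in vehicle kidneys.

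**Figure D3:**
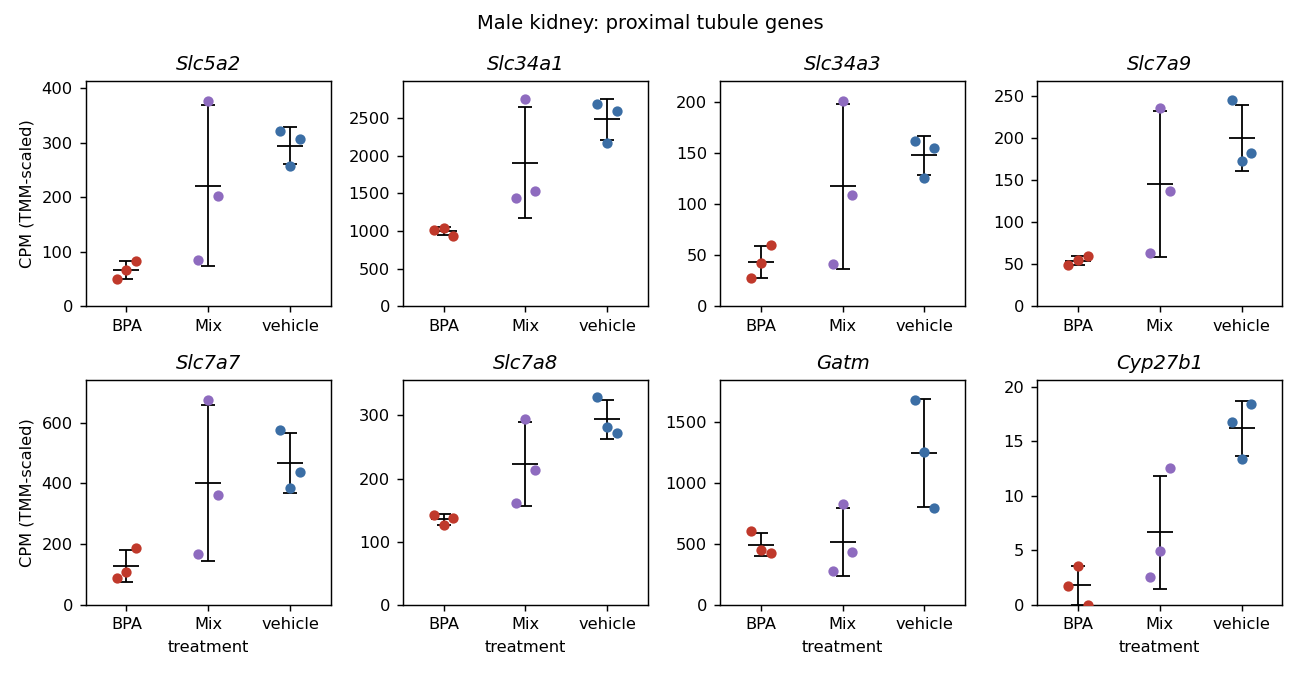
CPM (TMM-scaled) of 8 proximal tubule genes in BPA, Mix and vehicle male kidney; points are libraries, and lines and bars are the mean ± SD of 3. Slc5a2 lies at 50.5 to 83.1 CPM in BPA kidneys and 257 to 321 CPM in vehicle kidneys, with the Mix points spread between 84.3 and 377 CPM.

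The other nephron segments had medians nearer to 0. The 12 genes of the loop of Henle had a median of 0.32, the 10 of the distal tubule -0.28, the 21 of the collecting duct -0.04 and the 11 of the podocyte -0.20, and none of these genes passed with the 9 libraries. With the 6 libraries 1 passed upward in the loop, Ppp1r1b, which encodes the phosphatase inhibitor DARPP-32 and averaged 103 ± 10 CPM in BPA kidneys and 42.5 ± 17.0 CPM in vehicle kidneys. In the distal tubule Tmem52b, which encodes a membrane protein, passed upward at 77.6 CPM in BPA kidneys and 48.1 CPM in vehicle kidneys, and Kcnj16, a potassium channel subunit, passed downward at 325 CPM in BPA kidneys and 553 CPM in vehicle kidneys. In the podocyte list Cd2ap, an adaptor of the slit diaphragm, passed upward at 119 CPM in BPA kidneys and 55.97 CPM in vehicle kidneys. A single gene was 8.33% of the loop list, 9.09% of the podocyte list and, in each direction, 10% of the distal tubule list. Over all genes 6.58% passed upward and 5.88% downward with the 6 libraries. No collecting duct gene passed in either fit. Among 17 tubule injury genes none passed with the 9 libraries. With the 6 libraries Krt19, a keratin, passed upward and Cdkn1a, the cell cycle inhibitor p21, passed downward. Each was 5.88% of the injury list. Cdkn1a had 7.73, 7.70 and 7.08 CPM in BPA kidneys and 21.5, 33.4 and 12.6 CPM in vehicle kidneys.

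Among metabolic genes, Phgdh fell. It encodes phosphoglycerate dehydrogenase, the first step of serine synthesis from glucose. Phgdh had 20.97, 38.7 and 27.5 CPM in BPA kidneys, 58.5, 136 and 95.9 CPM in Mix kidneys, and 123, 83.8 and 115 CPM in vehicle kidneys. It fell to 0.272 times the vehicle level (log2 -1.88 ± 0.31, adjusted p = 0.0482), and no BPA library reached a vehicle library. Its upstream window is shown because it is the metabolic gene that passed, from RefSeq on GRCr8, chr2:188624790-188625039, minus strand, with the letters TATAAA in capitals, 217 bases before the start.
Phgdh: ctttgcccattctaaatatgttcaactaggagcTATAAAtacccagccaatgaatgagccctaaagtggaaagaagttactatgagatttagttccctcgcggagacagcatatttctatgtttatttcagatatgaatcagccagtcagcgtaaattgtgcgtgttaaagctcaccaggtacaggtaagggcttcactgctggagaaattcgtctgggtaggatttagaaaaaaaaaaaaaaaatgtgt
Neither GTTAAT nor the cAMP response element TGACGTCA was found in this window.

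The other genes of serine, glycine and one-carbon metabolism did not pass with the 9 libraries, and the median of the 21 tested was -0.38. A further 3 passed downward with the 6 libraries. Together with Phgdh they were 19% of the list, against 5.88% of all genes. Shmt2, which makes glycine from serine in mitochondria, averaged 73.0 ± 9.17 CPM in BPA kidneys and 124 ± 14.3 CPM in vehicle kidneys. Gcsh, of the glycine cleavage system, averaged 329 CPM in BPA kidneys and 522 CPM in vehicle kidneys, and Cbs, which joins serine to homocysteine, 151 CPM in BPA kidneys and 222 CPM in vehicle kidneys. Psat1, the step after Phgdh, averaged 305 ± 35.7 CPM in BPA kidneys and 397 ± 65.6 CPM in vehicle kidneys and passed in neither fit.

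Ppm1k rose. It encodes the mitochondrial phosphatase that switches on the breakdown of branched-chain amino acids, and it had 171, 189 and 179 CPM in BPA kidneys, 124, 104 and 116 CPM in Mix kidneys, and 90.3, 84.8 and 101 CPM in vehicle kidneys. The change was 1.95-fold (log2 0.97 ± 0.15, adjusted p = 0.0428), with no overlap between the 3 groups. Of 30 genes of amino acid catabolism none passed with the 9 libraries, and 1 passed upward and 6 downward with the 6. These were 3.33% and 20% of the list, against 6.58% and 5.88% of all genes. The one upward was Bcat2, the mitochondrial branched-chain transaminase, which averaged 96.5 CPM in BPA kidneys and 50.0 CPM in vehicle kidneys. Ddc, the decarboxylase that makes dopamine in the proximal tubule, averaged 81.3 CPM in BPA kidneys and 220 CPM in vehicle kidneys and was among the 6 downward.

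Genes of fuel oxidation and glucose production had medians below 0 with no member passing in the 9 libraries. The 38 genes of fatty acid oxidation had a median of -0.29, and with the 6 libraries 14 passed downward and 2 upward. These were 37.8% and 5.41% of the list, against 5.88% and 6.58% of all genes. Eci1, an isomerase of mitochondrial beta-oxidation, had 283, 295 and 271 CPM in BPA kidneys and 815, 477 and 650 CPM in vehicle kidneys. Against this direction, Cd36, a fatty acid importer, had 11.9, 4.75 and 3.84 CPM in BPA kidneys and 0.824, 0.257 and 1.56 CPM in vehicle kidneys, and Ppargc1a, a coactivator of mitochondrial genes, averaged 16.5 CPM in BPA kidneys and 6.08 CPM in vehicle kidneys.

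In gluconeogenesis and glycolysis the median of 24 genes was -0.07, with 15 below 0, and 7 passed downward with the 6 libraries. The 7 were 29.2% of the list, against 5.88% of all genes. Among all rows outside testis-enriched and ribosomal RNA rows, 47.1% were below 0. The 24 include 1 testis-enriched row, Hk1. Fbp1, fructose bisphosphatase, had 973, 906 and 1058 CPM in BPA kidneys and 1952, 1620 and 1816 CPM in vehicle kidneys, without overlap. G6pc, which releases free glucose, averaged 972 ± 238 CPM in BPA kidneys and 1793 ± 458 CPM in vehicle kidneys. Fbp1 and G6pc, both among the 7, also belong to the proximal tubule list and were counted there. Pck1, the committed step, averaged 3557 ± 1375 CPM in BPA kidneys and 5682 ± 1245 CPM in vehicle kidneys and passed in neither fit. Oxidative phosphorylation had 62 genes tested with a median of -0.31, and 7 passed downward with the 6 libraries (11.3%). Atp5g1, a subunit of the ATP synthase ring, had 1028, 1191 and 1147 CPM in BPA kidneys and 2361, 1919 and 2528 CPM in vehicle kidneys.

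Of 38 genes of xenobiotic metabolism tested, 27 had a log2 fold change below 0, with a median of -0.15. Among all rows outside testis-enriched and ribosomal RNA rows, 47.1% were below 0. None passed with the 9 libraries, and 3 passed upward and 6 downward with the 6. These were 7.89% and 15.8% of the list, against 6.58% and 5.88% of all genes. Cyp2e1, a cytochrome P450 of small solvents, averaged 256 CPM in BPA kidneys and 477 CPM in vehicle kidneys, while Ahr, the dioxin receptor, averaged 27.7 ± 7.54 CPM in BPA kidneys and 14.9 ± 2.23 CPM in vehicle kidneys. Among 21 antioxidant genes driven by NRF2 the median was -0.10, with 1 passing upward and 6 downward with the 6 libraries (4.76% and 28.6%). Tkt, transketolase of the pentose phosphate pathway, had 260, 269 and 254 CPM in BPA kidneys and 544, 516 and 455 CPM in vehicle kidneys (adjusted p = 0.0557). Gpx2, a glutathione peroxidase, averaged 9.35 CPM in BPA kidneys and 30.7 CPM in vehicle kidneys. Of the 10 bisphenol and steroid receptor genes that passed the low-count filter, none passed with the 9 libraries, and 1, Ahr, passed upward with the 6 (adjusted p = 0.0373). Ahr alone was 10% of these genes, against 6.58% of all genes.

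The 2 remaining genes that fell encode secreted proteins. Apcs encodes serum amyloid P, a pentraxin of plasma. It had 25.6, 29.2 and 27.1 CPM in BPA kidneys, 33.6, 117 and 71.0 CPM in Mix kidneys, and 145, 121 and 107 CPM in vehicle kidneys, and fell to 0.220 times the vehicle level (log2 -2.18 ± 0.35, adjusted p = 0.0449). Spp2, a secreted phosphoprotein found in bone matrix and plasma, had 132, 111.8 and 106 CPM in BPA kidneys, 242, 650 and 412 CPM in Mix kidneys, and 486, 390 and 401 CPM in vehicle kidneys (log2 -1.87 ± 0.29, adjusted p = 0.0428). In both, Mix replicate 1 was the lowest of the Mix libraries. Over the 14 plasma protein genes tested, Apcs included, the median log2 fold change was 0.62, with 1 passing upward (Orm1) and 2 downward (Apcs and Apoc3) with the 6 libraries. These were 8.33% and 16.7% of the list, against 6.58% and 5.88% of all genes. Alb, albumin, averaged 63.3 CPM in BPA kidneys and 27.2 CPM in vehicle kidneys without passing in either fit.

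The 9-library fit was repeated with the log2 share of ribosomal RNA as a covariate. In that share BPA (16.4% to 37.2%) and vehicle libraries (1.70% to 3.50%) did not overlap, and Mix libraries spanned 1.42% to 20.2%. The covariate and the treatment are therefore hard to tell apart in this fit. No gene passed, and 914 had an unadjusted p below 0.05. The log2 fold change was then 1.93 for Dcn, 0.97 for Pdgfra and 2.17 for Tcf21, against 1.64 for Tcf21 without the covariate. Those of Phgdh (-0.92), Apcs (-0.88), Spp2 (-0.88) and Abca8a (0.88) were smaller by more than 1.5 times, and Ppm1k stood at 0.79.

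**Figure D4:**
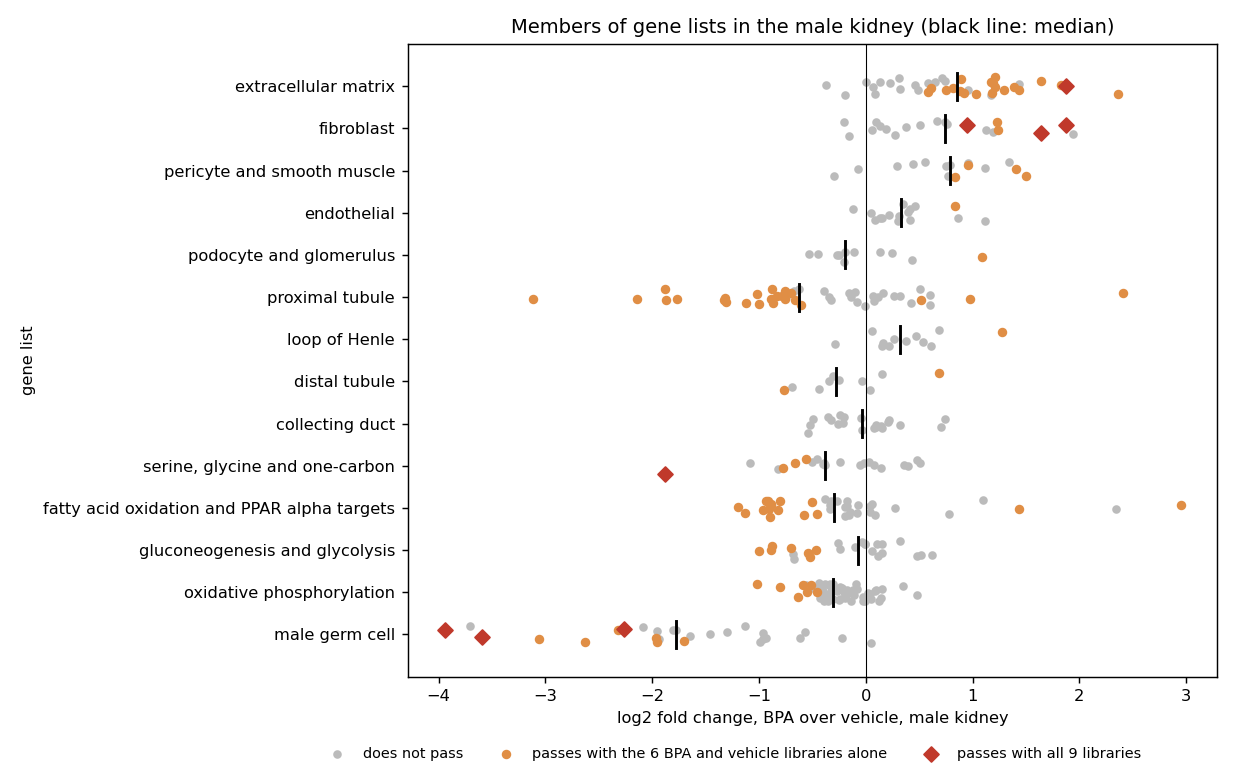
log2 fold change, BPA over vehicle, of each tested member of 14 gene lists in male kidney; red diamonds passed with all 9 libraries, orange points with the 6 BPA and vehicle libraries alone, and black lines mark list medians. The matrix list lies mostly right of 0 with a median of 0.85, the proximal tubule list mostly left of it with a median of -0.62, and the germ cell list at a median of -1.78.

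Other cell types and responses were described by the same counts. The 12 macrophage genes had a median of 0.23 and a summed level of 624 to 789 CPM in BPA kidneys and 630 to 687 CPM in vehicle kidneys. The 21 genes of antigen presentation and the interferon response had a median of 0.38, and RT1-Da and Ifit2 passed upward with the 6 libraries. This was 9.52% of the list, against 6.58% of all genes. The 8 erythroid genes summed to 12900 to 24700 CPM in BPA kidneys and 9290 to 14600 CPM in vehicle kidneys, so the ranges overlapped. The 13 glucocorticoid-induced genes had a median of -0.60, and 5 passed downward with the 6 libraries, among them Klf9, a hormone-induced repressor, with 426, 464 and 428 CPM in BPA kidneys and 863, 718 and 508 CPM in vehicle kidneys. The 5 were 38.5% of the list, against 5.88% of all genes. None of the 12 clock, 20 immediate early and heat shock or 16 cell cycle genes tested passed with the 9 libraries.

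Rows enriched in testis were separated with libraries outside the comparison. A row counted as testis-enriched when its mean was at least 10 CPM in the 9 testis libraries and at least 20 times the mean of the 7 female kidney libraries plus 0.1 CPM, which 1224 of 17048 rows met. These rows took 0.432%, 0.371% and 0.291% of all counts in BPA kidneys, 1.71%, 1.07% and 1.21% in Mix kidneys, and 0.759%, 0.569% and 0.688% in vehicle kidneys. In the 7 female kidney libraries the same rows took 0.222% to 0.373%, so part of the share is not particular to rats with testes. The share averaged 0.365% ± 0.0704 in BPA kidneys and 0.672% ± 0.0961 in vehicle kidneys (SD, n = 3 each; exact two-sided permutation p = 0.1, the smallest possible). Outside the ribosomal RNA rows the means were 0.531% ± 0.136 in BPA kidneys and 0.690% ± 0.105 in vehicle kidneys, the groups overlapped, and the exact permutation p was 0.2. In the 450 rows with at least 100 CPM in testis and at least 100 times the female kidney level, the median row stood at 0.382%, 0.114% and 0.0496% of its testis level in BPA kidneys and at 1.23%, 0.582% and 0.957% in vehicle kidneys.

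Of 778 testis-enriched rows tested, none rose, 7 fell, the median log2 fold change was -0.82 and 77.4% were below 0, against 47.1% of the 10215 other rows outside ribosomal RNA. The 7 were Prm1, a protamine that packs sperm DNA, Pgk2, the phosphoglycerate kinase of sperm, Gtf2a1l, a germ cell subunit of a general transcription factor, Fhl4, Hrasls, Tuba3a and Tuba3b. The last pair encode nearly identical tubulins, and their split of reads is uncertain. Prm1 had 28, 21 and 21 counts in BPA libraries and 298, 175 and 196 counts in vehicle libraries, a scaled ratio of 0.208 (95% exact interval 0.160 to 0.266, counting error only). Pgk2 had 2, 6 and 3 counts in BPA libraries and 118, 77 and 69 counts in vehicle libraries, a ratio of 0.0829 (0.0409 to 0.151). Gtf2a1l had no count in any BPA library and 21, 27 and 25 counts in vehicle libraries, a ratio of 0 (0 to 0.103). Enough counts in any 3 libraries let a row into the test, so rows near 0 in BPA kidneys could enter through Mix or vehicle kidneys. The numbers of testis-enriched rows falling and below 0 therefore depend in part on this filter. With the 6 libraries 607 such rows were tested, and 8 passed upward and 53 downward. Of the 10129 other rows outside ribosomal RNA, 692 passed upward and 579 downward. Over all genes 6.58% passed upward and 5.88% downward. Of these 607, 76.1% were below 0, against 47.4% of the other rows.

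Tnp1, the transition protein that precedes protamines, was the testis-enriched row with the most counts over the 9 male kidney libraries. In BPA kidneys alone its mean of 84.8 CPM was below those of Akap12 (175 CPM), Gkap1 (119.9 CPM) and RGD1563941 (104 CPM). Its RefSeq window on GRCr8, chr9:82044279-82044528, minus strand, is shown as an example of a germ cell promoter. Capitals mark the cAMP response element letters TGACGTCA, which 1.59% of the windows contained.
Tnp1: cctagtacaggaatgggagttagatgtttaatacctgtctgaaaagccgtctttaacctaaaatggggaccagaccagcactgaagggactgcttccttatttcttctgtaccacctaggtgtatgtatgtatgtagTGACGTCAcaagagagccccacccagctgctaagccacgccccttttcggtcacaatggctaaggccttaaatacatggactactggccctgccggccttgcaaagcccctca
Tnp1 had 182, 31.8 and 40.2 CPM in BPA kidneys, 1515, 695 and 853 CPM in Mix kidneys, and 379, 193 and 316 CPM in vehicle kidneys (BPA against vehicle, log2 -1.81 ± 0.57, adjusted p = 0.121). In the 7 female kidney libraries it had 0.143 to 25.1 CPM. The next 4 testis-enriched rows by counts, Akap12, RGD1563941, Gkap1 and Hk1, had levels in female kidney of their own, with 65.3 to 181 CPM for the anchoring protein gene Akap12 and 31.1 to 90.3 CPM for the hexokinase Hk1. Of the testis somatic list, the Sertoli cell gene Amh had no count in the 6 libraries and the Leydig cell gene Insl3 had 10 in total. The part of testis RNA in the differences between the kidney groups was not tested.

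Mix kidneys were set beside BPA kidneys without a comparison of their calls, since both share the vehicle rats. Against vehicle, 3 genes passed in Mix kidneys (0.0273%). Mix replicate 1, which held 20.2% ribosomal RNA, had 84.3 CPM of Slc5a2, 33.6 CPM of Apcs and 58.5 CPM of Phgdh, below both other Mix libraries in each. It was the highest of the Mix libraries in Abca8a, with 56.2 CPM against 37.3 and 36.4, and in Abcc9, with 51.9 CPM against 14.9 and 33.0. Its Dcn level of 193 CPM was the lowest of the 3.

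Female kidney gave another set of rats under the same treatment, with 2 BPA and 2 vehicle libraries. No gene passed there with edgeR (0%), and 1754 of 10681 had an unadjusted p below 0.05. All 8 genes described above had the opposite sign, although that of Ppm1k was -0.06 ± 0.19. Dcn had 354 and 188 CPM in female BPA kidneys and 516 and 250 CPM in female vehicle kidneys. Tcf21 had 8.26 and 11.6 CPM in female BPA kidneys and 27.1 and 33.2 CPM in female vehicle kidneys. Apcs had 125.8 and 125.5 CPM in female BPA kidneys and 64.2 and 20.3 CPM in female vehicle kidneys. The CPM were scaled for each sex in a separate fit, so levels compare only roughly between the sexes. For these 3 genes at least 1 female vehicle library lay at or near the level of the male BPA libraries. The same held for the share of ribosomal RNA, at 37.1% and 19.2% in female vehicle libraries and 37.2%, 16.4% and 36.9% in male BPA libraries. The labels give no batch of library preparation, and the part of a batch or of exchanged labels in the values of the female groups was not tested.

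The difference between the sexes was tested itself, as male minus female effect over all 16 kidney libraries. It passed for 551 of 11651 genes (4.73%). The 8 genes, which were chosen for their male effect in libraries that this test also uses, were among the 551. The difference was 2.37 ± 0.51 for Dcn (adjusted p = 0.0206), 3.24 ± 0.39 for Tcf21 (adjusted p = 0.00285), 1.93 ± 0.31 for Pdgfra and 2.68 ± 0.44 for Abca8a. It was -3.02 ± 0.69 for Phgdh, -3.77 ± 0.61 for Apcs and -4.18 ± 0.87 for Spp2, and 1.02 ± 0.22 for Ppm1k. Over all genes the male effect was the higher one in 252 (2.16%) and the lower one in 299 (2.57%). In the matrix list 12 genes passed with the male effect higher and none with it lower, and 32 of 36 with a female value had one below 0. In the proximal tubule list none passed with the male effect higher and 11 with it lower, and 15 of 44 had a female value below 0. Of the 10042 genes outside testis-enriched and ribosomal RNA rows with a female value, 51% were below 0. Slc5a2, for example, had 216 and 234 CPM in female BPA kidneys and 188 and 27.3 CPM in female vehicle kidneys. The count of 551 depended on single libraries, with 35 genes passing without male vehicle replicate 1, 267 without vehicle replicate 2, a count between these without vehicle replicate 3, and 183 and 293 without male BPA replicate 1 or 2. With a female library left out, an alternative chosen after seeing the data, it was 1107 and 72 without female vehicle replicate 1 or 2 and 104 and 2 without female BPA replicate 1 or 2. Without female BPA replicate 2, Tcf21 still passed (adjusted p = 0.0108), and Pdgfra and Apcs did not (0.0695).

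**Figure D5:**
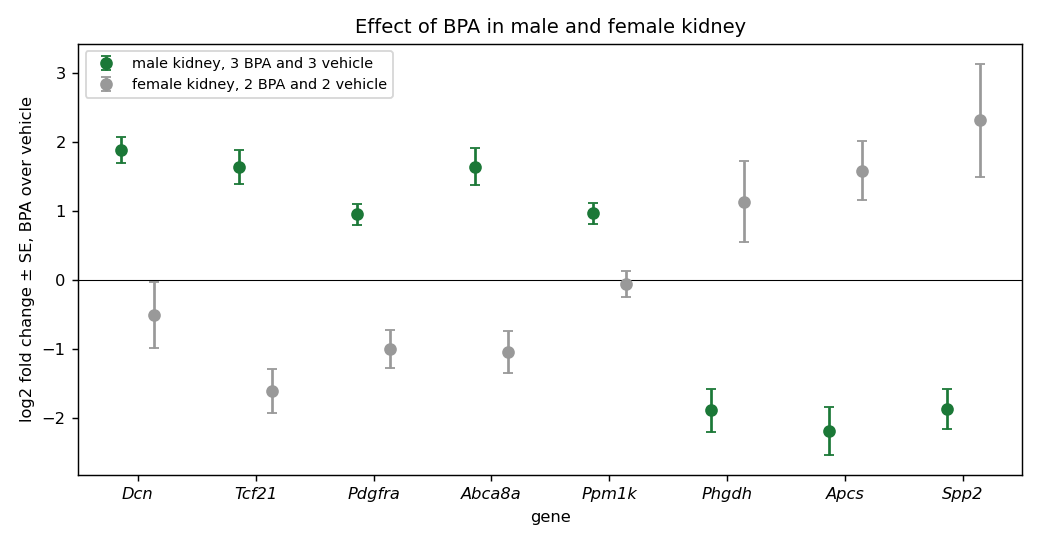
log2 fold change ± SE, BPA over vehicle, of the 8 passing genes in male kidney (green, 3 BPA and 3 vehicle libraries) and female kidney (grey, 2 and 2). Every gene lies on opposite sides of 0 in the sexes, from 1.64 and -1.61 for Tcf21 to 0.97 and -0.06 for Ppm1k.

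In the liver of male rats under the same treatments, 22 of 9669 genes passed for BPA against vehicle (0.228%), and none of the 8 kidney genes did. Apcs had 497, 420 and 274 CPM in BPA livers and 401, 442 and 280 CPM in vehicle livers. Spp2 had 761, 681 and 850 CPM in BPA livers and 631, 943 and 703 CPM in vehicle livers. For both genes the liver groups overlapped.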

How the data were processed

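Per the labels' protocols, TRIzol was used for extraction and a QuantSeq 3′ kit for the libraries. The submitters' processing notes name Bowtie2, bedtools, FastQC and edgeR without versions, and the build rn6. The authors deposited whole-number counts per gene, in 17048 rows and 70 libraries. How multiply aligned or overlapping reads were counted, and strand, is not given in the sources used here, so near-identical and overlapping genes are uncertain. Of the rows, 316 carry one of 149 repeated symbols and were kept apart.

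Male kidney was fitted with edgeR 4.0.16 in R 4.3.3 (filterByExpr, TMM, quasi-likelihood test, Benjamini-Hochberg adjustment over all genes tested); alternatives used DESeq2 1.42.0 and limma 3.58.1. Library shares were tested by exact permutation. The scripts were tested on simulated data. The closing section gives the alternatives: other normalization, filters, left-out rows and libraries, a covariate and a replicate block. No library was a near duplicate, with chi-square per gene of 14.3 to 83.9 within groups. Named genes were all that passed, the 12 each way with the smallest p and a mean log2 CPM of at least 2, passing or leading members of 39 lists (up to 4, or the 2 most abundant for other cell types), 5 genes of the sex difference and the 5 most abundant testis-enriched rows. The collagens, Fn1, Fbn1, Acta2, Adipoq, Slc34a3, Slc7a7, Slc7a9, Gatm, Cyp24a1, Ggt1, Dpep1, Hnf4a, Cd36, Ppargc1a, Pck1, Psat1, Cyp2e1, Krt19 and Alb were named outside this rule, after their values were seen. The members, lists and rules were chosen with earlier results of these data known. Promoter windows came from RefSeq (GRCr8), where 11 of the 15 passing genes had one. The results of 2 genes are not reported here.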

Additional observations from a re-analysis of the deposited data

Results flagged for a closer look

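The effect of BPA differed between male and female kidney in 551 genes by the interaction test, and the male minus female difference of the 5 with the smallest p was 3.24 for Tcf21, 3.44 for Dmbt1, 1.93 for Pdgfra, 2.43 for Lrp1 and -3.77 for Apcs, on the log2 scale. Dmbt1, which encodes a secreted scavenger receptor protein, had 18.3, 16.9 and 13.8 CPM in male BPA kidneys and 8.86, 6.44 and 6.03 CPM in male vehicle kidneys, with 1.93 and 2.46 CPM in female BPA kidneys and 11.9 and 9.002 CPM in female vehicle kidneys. Lrp1, an endocytic receptor, had 27.1, 28.0 and 24.1 CPM in male BPA kidneys and 12.4, 19.0 and 17.2 CPM in male vehicle kidneys, with 7.73 and 6.27 CPM in female BPA kidneys and 22.9 and 24.1 CPM in female vehicle kidneys. Without female BPA replicate 2 the count was 2, and Dmbt1, Pdgfra, Lrp1 and Apcs no longer passed (adjusted p = 0.0695). The ribosomal RNA share was higher in BPA than in vehicle libraries in males, and in females it was 17.2% and 20.9% in BPA libraries and 37.1% and 19.2% in vehicle libraries. Its part in the difference was not tested.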

How the results depend on the processing

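The number of genes passing in male kidney, 15 as reported, depended on the model. It was 1339 with the 6 BPA and vehicle libraries, 1336 with limma-voom and sample quality weights, 809 with DESeq2, 191 without a low-count filter, 13 with CPM of at least 5 in 3 libraries, 13 without ribosomal RNA rows and 15 with RLE size factors. It was 1 without testis-enriched rows and 1 without these and ribosomal RNA rows. With the log2 ribosomal RNA share as covariate it was 0 (914 at an unadjusted p below 0.05, edgeR). Leaving out 1 of the 9 libraries gave 0 to 886 genes, with 0 without vehicle replicate 1 or 3. Settings chosen after seeing the data gave 1348 (6 libraries without testis-enriched and ribosomal RNA rows), 1748 (6 libraries, DESeq2) and, with 1 of the 6 left out, 339, 717 and 591 (vehicle replicates 1 to 3) and 832, 945 and 1285 (BPA replicates 1 to 3). The share rising was 33.3% as reported, 43.9% with DESeq2 and 52.8% with the 6 libraries. The sex difference passed for 551 genes, for 1126 without Mix libraries, 1262 with DESeq2, 35 to 437 with 1 of the 6 male BPA and vehicle libraries left out, and 1107, 72, 104 and 2 without female vehicle replicate 1, vehicle replicate 2, BPA replicate 1 or BPA replicate 2, which were tried after seeing the data. None of the 15 genes and neither share difference changed sign in an alternative run. With the ribosomal RNA share as covariate these named genes, none of them passing, did: Des (-0.19), Shmt2 (0.02), Orm1 (-2.91), Tmem52b (-0.99), Kcnj16 (0.14), Cd2ap (-0.20), Akap12 (-0.63), Gkap1 (-0.28) and Hk1 (0.10); the median over all genes of the BPA against vehicle fits ranged from -0.02 to 0.02. The causes were not tested. Replicate numbers were not shown to pair rats, since the deviations of same-numbered BPA and vehicle libraries correlated at 0.15, 0.08 and -0.05; with a replicate block 168 genes passed, and 1373 with the 6 libraries and the block. With vehicle libraries of 8524615 counts or more and BPA libraries of 6519567 or fewer, of which 16.4% to 37.2% were ribosomal, genes of a few counts are the least precise.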
